A study of Mus musculus with 6 samples.

Results

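The BCL-2 family decides whether the mitochondrial outer membrane stays closed or releases cytochrome c, and 10 of its genes were examined in LPS-treated macrophages with and without knockdown of PGAM5. The genes were chosen by name: the survival genes Mcl1, Bcl2, Bcl2a1a, Bcl2a1b and Bcl2a1d, the pore-forming effector Bak1, and the BH3-only death genes Bid, Bcl2l11, Bad and Pmaip1. Each was found once among the 54532 genes listed for every library, and 9 of the 10 reached a mean of at least 1 FPKM over the 6 libraries and were tested. Survival proteins hold the effectors BAK and BAX in check at the outer membrane. BH3-only proteins bind the survival proteins, and some of them also activate BAK and BAX, which then open pores that start caspase activation. In macrophages, LPS is known to switch on NF-κB, and A1 (the product of the Bcl2a1 genes) is a well-known NF-κB target. PGAM5, a phosphatase of the mitochondrial outer membrane, is known to bind BCL-XL, another survival protein of the family.

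RNA-seq was done on immortalized bone marrow-derived macrophages (iBMDMs) of mouse, whose unlimited growth comes from the oncogenes v-raf and v-myc, brought in by retrovirus. Both groups carried a lentiviral shRNA, a control shRNA in control iBMDMs and an shRNA against PGAM5 in PGAM5 KD iBMDMs, and both received LPS at 100 ng/ml for 4 hours. There were 3 libraries per group and none from untreated cells, so no value here is an induction by LPS. Whether the 3 libraries of a group came from separate cultures or infections is not given in the sources used here, so p-values measure the spread between these libraries, which may be technical. As each group has its own shRNA and its own infected line, an effect of PGAM5 and a difference between lines cannot be told apart. In these bulk samples, fewer cells that express a gene and less RNA per cell cannot be told apart either.

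Pgam5 itself had 17.1, 12.97 and 13.4 FPKM under the control shRNA and 4.33, 5.75 and 4.53 FPKM under the PGAM5 shRNA (log2 fold change -1.40, standard error 0.13, adjusted p = 0.000358 from limma), so every library matched its label. FPKM scales the fragments of a gene to its exon length and to the depth of the library. Recovered depth was between 18163464 and 24388917 fragments per library. Of 12 macrophage markers, 10 had a mean of at least 1 FPKM, and Mertk was at 0 in all 6 libraries. The summed FPKM of the macrophage list was 3272 to 3369 in control and 2968 to 2999 in PGAM5 KD libraries. Its members moved both ways: Lyz2 fell from a mean of 1666 to 1265 FPKM and Csf1r from 231 to 148 FPKM, and Cd68 and Ctss fell to 0.868 and 0.917 times the control mean (limma adjusted p from 4.71e-05 for Csf1r to 0.0295 for Ctss), while Fcgr1, Adgre1, Itgam and Cd14 were 3.25, 1.91, 1.85 and 1.48 times higher (limma adjusted p from 2.68e-05 for Cd14 to 0.00322 for Itgam). Summed FPKM stayed at or under 2.23 for 12 neutrophil markers, 0.287 for 10 fibroblast markers and 3.499 for 12 lymphocyte markers in every library, with the neutrophil genes S100a9, Ly6g and Mpo and the lymphocyte genes Cd3e and Ms4a1 at 0 throughout. A mean of at least 1 FPKM was reached by 1 neutrophil marker, Csf3r (1.24 to 2.00 FPKM), and 1 lymphocyte marker, Lck (1.27 to 3.28 FPKM). The part of these markers in the results was not tested.

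Of the 9 genes tested, 4 rose and 3 fell in PGAM5 KD iBMDMs at an adjusted p-value under 0.05, against 31.7% of all 10540 genes tested (16.8% higher and 14.9% lower). With 1 library left out, 3 to 5 of the genes were called, 1 to 3 of them higher. Those fits called 2340 to 2858 of all 10540 genes, 1211 to 1497 of them higher. With values scaled to TPM, 2 of the genes were higher. TPM scaling also turned the split of calls over all genes from 1771 higher and 1575 lower to 1088 higher and 2282 lower. Bcl2a1d, Bcl2a1b, Bak1 and Bad rose, and Mcl1, Bcl2l11 and Bid fell. Bcl2 and Pmaip1 did not pass the threshold. The median log2 fold change of the 9 genes was -0.00044, beside 0.013 over all genes tested. All changes were small: none reached an absolute log2 fold change above 1, which with the same adjusted p-value was reached by 1.32% of all genes tested. The groups did not overlap for 7 of the 9, beside 47.1% of all genes tested (24.2% higher and 22.9% lower). Mcl1, Bcl2a1d and Bcl2l11 passed the threshold under each processing alternative that could test them, whereas Bcl2a1b, Bid, Bak1 and Bad lost it under some.

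**Figure D1:**
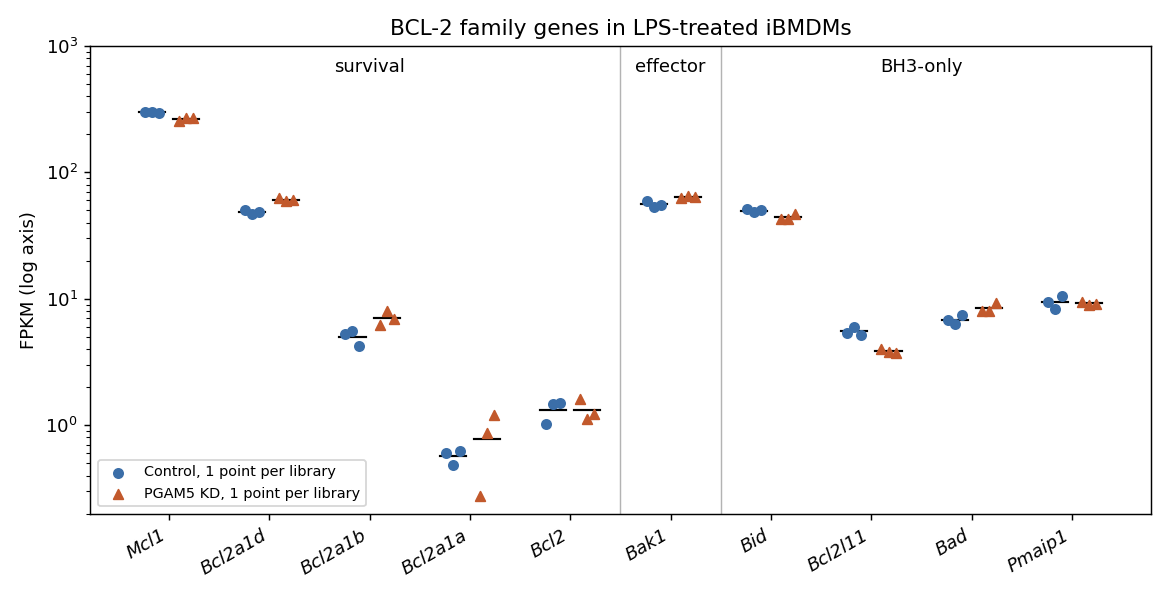
FPKM (log axis) of the 10 BCL-2 family genes in each library, with control libraries as circles, PGAM5 KD libraries as triangles and a line at each group mean. Mcl1 is far above the other genes in both groups, at 299 and 264 FPKM, and Bcl2a1a and Bcl2 lie near 1 FPKM.

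The levels spanned a wide range. Mcl1 was first at 299 ± 5.69 FPKM in control iBMDMs (SD, n = 3), followed by Bak1 at 56.1 ± 3.30, Bid at 49.9 ± 1.37 and Bcl2a1d at 48.9 ± 1.69 FPKM. A second tier held Pmaip1 at 9.43 ± 1.09, Bad at 6.86 ± 0.593, Bcl2l11 at 5.52 ± 0.421 and Bcl2a1b at 5.01 ± 0.663 FPKM (SD, n = 3), and Bcl2 at 1.33 ± 0.266 and Bcl2a1a at 0.571 ± 0.0764 FPKM came last. In control libraries the ranges of neighbours in this order overlapped for Bid and Bcl2a1d and for Bcl2l11 and Bcl2a1b. In PGAM5 KD libraries Bcl2a1d stood above Bid and Bcl2a1b above Bcl2l11 without overlap, while the ranges of Bak1 and Bcl2a1d, of Pmaip1 and Bad, of Bad and Bcl2a1b, and of Bcl2 and Bcl2a1a overlapped.

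Mcl1 encodes the short-lived survival protein that many myeloid cells depend on. It lies on chromosome 3 of GRCm38 (95658788 to 95663176, plus strand; ENSMUSG00000038612) and had 303, 302 and 292 FPKM in control libraries against 255, 270.2 and 267 FPKM in PGAM5 KD libraries. All 3 PGAM5 KD libraries were below all 3 control libraries, with 16774 to 22248 fragments per library. The fall was -0.18 on the log2 scale of FPKM + 1 (standard error 0.03, adjusted p = 0.00663 from limma), a ratio of group means of 0.883. Quantile normalization gave a larger fall, -0.31 (limma adjusted p = 0.000593).

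The Bcl2a1 genes are near-identical mouse copies of the gene for A1, which binds and blocks BH3-only proteins. Bcl2a1d (minus strand, 88723285 to 88731914), Bcl2a1a (plus strand, 88956900 to 88962419) and Bcl2a1b (plus strand, 89199209 to 89207827) lie in 1 stretch of chromosome 9 of GRCm38, with 2 exons each, and Bcl2a1c is a single-exon copy elsewhere on the chromosome (114330135 to 114330578). Their coding sequences, 516 bases in the 3 clustered copies, differ at 6 bases between Bcl2a1b and Bcl2a1d, at 7 between Bcl2a1a and Bcl2a1d and at 11 between Bcl2a1a and Bcl2a1b, which is 97.9% to 98.8% identity. The first 90 coding bases, from GENCODE M21 transcripts, are shown because they hold 6 of the 12 positions at which the 3 copies are not all the same. Capitals mark those positions.
Bcl2a1d: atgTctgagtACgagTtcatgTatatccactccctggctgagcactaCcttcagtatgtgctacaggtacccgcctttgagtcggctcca
Bcl2a1b: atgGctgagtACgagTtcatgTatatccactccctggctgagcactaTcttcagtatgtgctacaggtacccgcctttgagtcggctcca
Bcl2a1a: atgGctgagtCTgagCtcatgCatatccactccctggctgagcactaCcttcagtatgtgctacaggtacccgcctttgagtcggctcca
A fragment can be given to 1 copy only where it covers bases that set that copy apart from the others, within the coding sequence or outside it. Of all windows of 100 bases in the transcript, 45.3% in Bcl2a1d, 43.2% in Bcl2a1b and 56.5% in Bcl2a1a occurred in no transcript of another gene, and with windows of 150 bases the shares were 69.7%, 58.1% and 71.8%. Bcl2a1b also shares 401 of its 817 exon bases with Gm29094, a gene model on the same strand that had a mean of 0.146 FPKM and was chosen after its values were seen. How fragments that fit several genes were counted is not given in the sources used here, so the level of each copy is uncertain and may be too low.

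Bcl2a1d (ENSMUSG00000099974) carried most of the counted fragments and had 50.6, 47.3 and 48.9 FPKM in control libraries and 63.3, 58.9 and 60.5 FPKM in PGAM5 KD libraries. The lowest PGAM5 KD library was well over the highest control library, and the rise was 0.31 on the log2 scale (standard error 0.04, limma adjusted p = 0.0020). Bcl2a1b (ENSMUSG00000089929) had a far lower level and moved the same way, from 5.26, 5.52 and 4.26 to 6.24, 8.02 and 6.88 FPKM (log2 fold change 0.42, standard error 0.11, adjusted p = 0.0278 from limma). It rested on 68 to 137 fragments per library, and its call was lost without control replicate 1 or 3 or PGAM5 KD replicate 2 or 3, with adjusted p from 0.0536 to 0.0781. Bcl2a1a (ENSMUSG00000102037) had 0.605, 0.484 and 0.625 FPKM in control and 0.278, 0.874 and 1.202 FPKM in PGAM5 KD libraries, that is 5 to 24 fragments per library. Its groups overlapped and its mean was under the filter (exact two-sided permutation test, p = 0.5; with no filter, adjusted p = 0.693 from limma), and no difference beyond the spread between libraries was detected. Bcl2a1c was listed at 0 in every library although all of its windows were its own, and a count of 0 over a group allows up to 3 fragments in that group.

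Summed over the copies, which fragments moved between them would leave unchanged, the level was 48.5, 45.7 and 46.2 FPM in control libraries and 59.9, 58.1 and 58.8 FPM in PGAM5 KD libraries. FPM scales fragments to library depth as FPKM does, but not to exon length. The sums did not overlap, and their log2 difference of 0.33 reached p = 0.1 in the exact two-sided permutation test, the smallest p that 3 libraries against 3 allow. Bcl2a1d held 89.3% to 91.4% of the counted fragments in control and 87.5% to 91.1% in PGAM5 KD libraries, and this share did not differ beyond the spread (exact permutation p = 0.4).

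**Figure D2:**
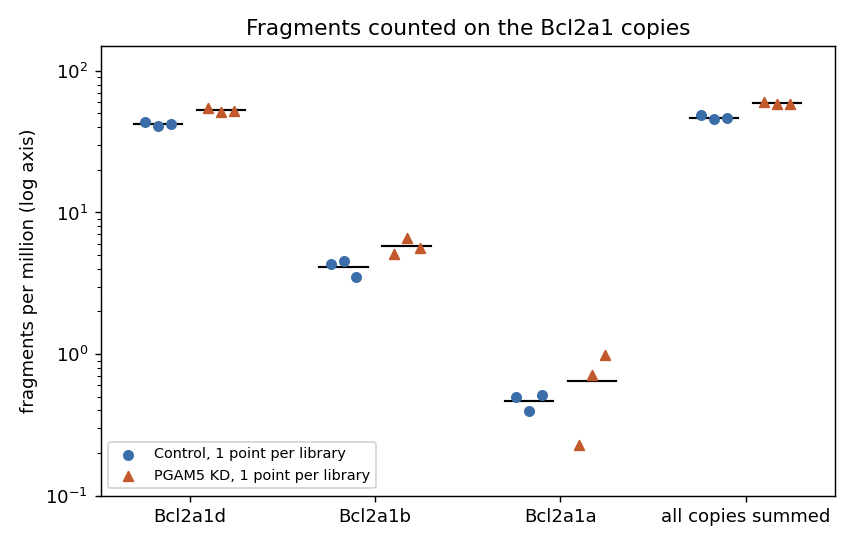
FPM (fragments scaled to library depth, log axis) counted on Bcl2a1d, Bcl2a1b and Bcl2a1a and on all copies together, 1 point per library with a line at the group mean. Bcl2a1d and the sum lie higher in all 3 PGAM5 KD libraries, at 58.1 to 59.9 FPM for the sum, and the points of Bcl2a1a overlap.

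The 3 clustered copies also share the sequence before their start, which is shown because Bcl2a1d and Bcl2a1b rose together. The bases before the GENCODE start that fall in RefSeq's promoter window (GRCm38.p6) were chr9:88731915-88732100 on the minus strand for Bcl2a1d, chr9:89199023-89199208 on the plus strand for Bcl2a1b and chr9:88956670-88956899 on the plus strand for Bcl2a1a. Capitals mark matches to TGANTCA, the AP-1 motif, and to GAGGAAGT, a motif of the macrophage factor PU.1, in that order.
Bcl2a1d: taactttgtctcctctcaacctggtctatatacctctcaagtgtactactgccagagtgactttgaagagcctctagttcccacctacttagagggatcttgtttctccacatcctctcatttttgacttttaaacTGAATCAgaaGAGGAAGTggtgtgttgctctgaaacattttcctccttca
Bcl2a1b: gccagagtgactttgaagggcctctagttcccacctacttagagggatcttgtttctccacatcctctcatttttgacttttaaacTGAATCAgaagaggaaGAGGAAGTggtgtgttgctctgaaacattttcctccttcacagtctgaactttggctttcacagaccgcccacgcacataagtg
Bcl2a1a: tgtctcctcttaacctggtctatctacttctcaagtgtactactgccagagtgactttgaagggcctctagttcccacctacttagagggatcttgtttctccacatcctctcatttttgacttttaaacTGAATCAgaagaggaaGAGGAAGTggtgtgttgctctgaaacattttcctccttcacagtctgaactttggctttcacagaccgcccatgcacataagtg
The matches do not overlap, and they are 3 bases apart in Bcl2a1d and 9 apart in Bcl2a1b and Bcl2a1a, which hold GAGGAA once more between them. Over 32851 RefSeq promoter windows of the same length (250 bases before the start and 50 after it, both strands), TGANTCA occurred in 7.81%, GAGGAAGT in 3.20% and both in 0.283%. Windows were found for 9 of the 10 genes, all but Pmaip1. GAGGAAGT also occurred in the windows of Bak1 and Bad, and none of the 9 genes' windows held the NF-κB consensus, which 8.46% of all windows hold, TATAAA, which 13.6% hold, or an IRF motif (a pair of GAAA with NN between), which 3.44% hold. The motifs were chosen after values were seen, and a match is a stretch of letters, not a measured binding site.

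Bcl2, the founding survival gene of the family (ENSMUSG00000057329, chromosome 1, minus strand, 106538178 to 106714274), was low in these macrophages. It had 1.02, 1.47 and 1.49 FPKM in control and 1.62, 1.13 and 1.23 FPKM in PGAM5 KD libraries, 170 to 327 fragments each. The ranges overlapped, and the difference of -0.00044 on the log2 scale had a 95% confidence interval from -0.33 to 0.33 (adjusted p = 0.999 from limma).

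Because library scaling cancels within a library, the survival genes were also compared as shares of their summed FPKM, a quantity chosen after values were seen that adds Bcl2l1 (BCL-XL) and Bcl2l2 (BCL-W). Mcl1 made up 78.1%, 77.9% and 78.0% of the sum in control libraries and 70.2%, 72.0% and 71.4% in PGAM5 KD libraries. The Bcl2a1 copies made up 14.6%, 13.7% and 14.3% in control and 19.2%, 18.1% and 18.3% in PGAM5 KD libraries. Bcl2l1 made up 6.12%, 6.88% and 6.08% against 9.09%, 8.60% and 8.74%. None of these 3 shares overlapped between the groups (exact two-sided permutation p = 0.1 for each). The sum itself was 383 ± 7.30 FPKM in control and 371 ± 6.07 FPKM in PGAM5 KD libraries (SD, n = 3; exact permutation p = 0.2). Its ranges overlapped narrowly, with 375.1 FPKM the lowest in control and 375.4 FPKM the highest in PGAM5 KD libraries. With 3 libraries against 3, this test cannot show that the sum stayed the same. These are mRNA levels, and the proteins were not measured here.

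**Figure D3:**
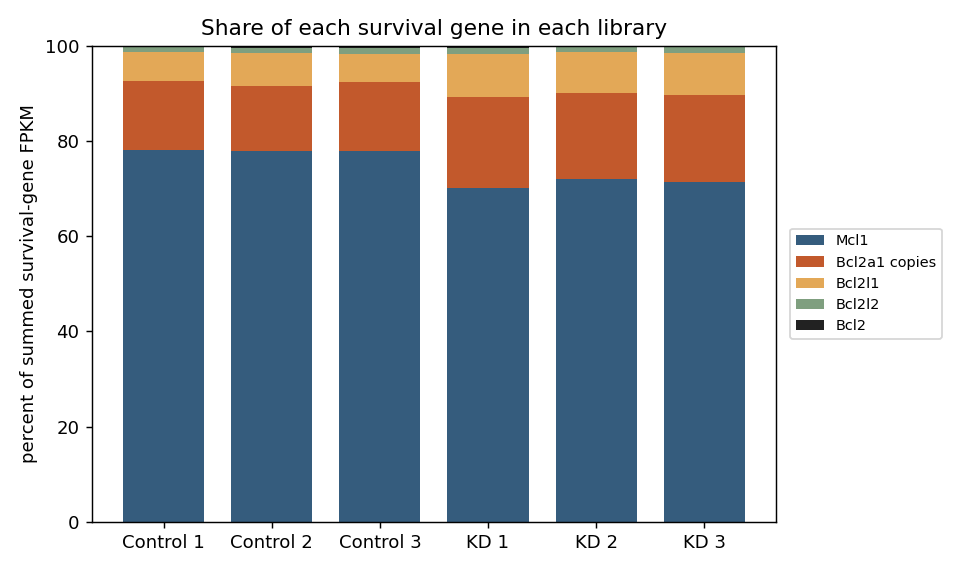
Stacked bars give the percent of the summed survival-gene FPKM on Mcl1, the Bcl2a1 copies, Bcl2l1, Bcl2l2 and Bcl2 in each of the 6 libraries. The Mcl1 part is 77.9% to 78.1% in control and 70.2% to 72.0% in PGAM5 KD libraries, with larger Bcl2a1 and Bcl2l1 parts in the latter.

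Bak1 encodes BAK, an effector that sits in the outer membrane and forms the pore. On the minus strand of chromosome 17 (27019810 to 27029009; ENSMUSG00000057789), it had 59.8, 53.6 and 54.8 FPKM in control and 63.0, 65.1 and 64.3 FPKM in PGAM5 KD libraries. All 3 PGAM5 KD libraries were above the highest control library. The rise of 0.19 (standard error 0.05, adjusted p = 0.0205 from limma) lost its call when values were scaled to TPM, at 0.116 with adjusted p = 0.1002, and without control replicate 2 or 3 or PGAM5 KD replicate 2 or 3 (adjusted p from 0.0607 to 0.0674). Bax, which encodes the other main effector, rose from 91.5 ± 4.72 to 108 ± 9.73 FPKM (SD, n = 3). Its rise of 0.23 (adjusted p = 0.0418 from limma) lost its call at TPM scaling too (adjusted p = 0.109), under quantile normalization (0.0986), with no filter on low values (0.106) and with no mean-variance trend (0.0721), and without control replicate 2 or 3 or PGAM5 KD replicate 2 or 3 (adjusted p from 0.111 to 0.122).

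Bcl2l11, which encodes BIM, fell most among the 9 genes. BIM is a BH3-only protein that binds every survival protein of the family and can activate BAX and BAK. The gene lies on chromosome 2 (128126038 to 128162547, plus strand; ENSMUSG00000027381) and had 5.38, 5.99 and 5.19 FPKM in control and 4.00, 3.77 and 3.74 FPKM in PGAM5 KD libraries, with 550 to 971 fragments each. The groups were well apart, and the fall was -0.43 on the log2 scale (standard error 0.07, limma adjusted p = 0.00439), a ratio of 0.695 between group means. Within each library, its FPKM was 0.0177 to 0.0198 of that of Mcl1 in control and 0.0140 to 0.0156 in PGAM5 KD libraries (exact permutation p = 0.1), a ratio chosen after values were seen.

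Bid, whose product is cut by caspase-8 and carries the death receptor signal to mitochondria, had 50.9, 48.3 and 50.4 FPKM in control and 42.5, 43.0 and 47.0 FPKM in PGAM5 KD libraries. The gene (ENSMUSG00000004446) lies on chromosome 6 (120891930 to 120916853, minus strand). PGAM5 KD replicate 3 was nearest to the control libraries but did not overlap them. The fall of -0.17 on the log2 scale (standard error 0.05, limma adjusted p = 0.0330) passed the threshold in only 1 of the 6 fits that left out a library, the one without PGAM5 KD replicate 3. Without control replicate 1, 2 or 3 or PGAM5 KD replicate 1 or 2, adjusted p was 0.0502 to 0.0992. The end of Bid shares 628 of its 3550 exon bases with Bcl2l13 on the opposite strand, which had a mean of 7.67 FPKM, and the strand setting of the counting is not given in the sources used here.

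Within a library, the ratio of Bcl2a1d to Bid rose. Bcl2a1d had 0.994, 0.978 and 0.970 times the FPKM of Bid in control and 1.49, 1.37 and 1.29 times in PGAM5 KD libraries (log2 difference 0.49, exact two-sided permutation p = 0.1). Bak1 had 0.178 to 0.198 times the FPKM of Mcl1 in control and 0.241 to 0.246 times in PGAM5 KD libraries (log2 difference 0.37, exact permutation p = 0.1). Both pairs were chosen after their values were seen, and each sets a gene called higher over a gene called lower. The direction and the p-value were therefore fixed in advance, and these ratios add no test to the single-gene results.

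Bad encodes a BH3-only protein that binds BCL-2 and BCL-XL and is held in the cytosol when phosphorylated. On chromosome 19 (6941861 to 6951899, plus strand; ENSMUSG00000024959), it had 6.80, 6.30 and 7.48 FPKM in control and 7.98, 8.04 and 9.21 FPKM in PGAM5 KD libraries. The groups did not overlap, but the rise of 0.26 (standard error 0.08) passed only narrowly, with a limma adjusted p of 0.0449. It lost its call at TPM scaling (0.207, adjusted p = 0.106) and without control replicate 1 or 2 or PGAM5 KD replicate 1, 2 or 3 (adjusted p from 0.0594 to 0.126). Bad shares 524 of its 2558 exon bases with Gpr137 on the opposite strand, which had a mean of 4.66 FPKM in control and 4.68 FPKM in PGAM5 KD libraries.

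Pmaip1 encodes NOXA, a BH3-only protein that binds MCL-1 and A1 and is known as a target of p53 and of interferon signaling. It lies on chromosome 18 (66458533 to 66465565, plus strand; ENSMUSG00000024521) and had 9.51, 8.30 and 10.5 FPKM in control and 9.51, 8.95 and 9.14 FPKM in PGAM5 KD libraries. The groups overlapped, with a log2 fold change of -0.027 and a 95% confidence interval from -0.22 to 0.16 (adjusted p = 0.828 from limma; exact permutation p = 0.8). A difference of that size in either direction remains possible at this spread.

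**Figure D4:**
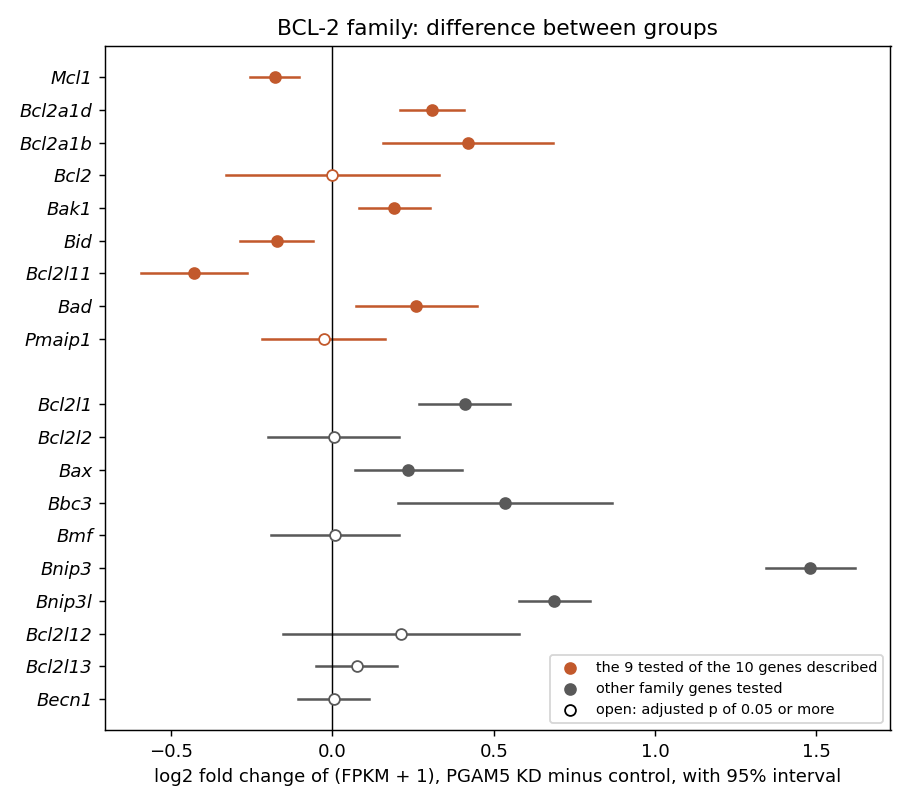
Log2 fold change of FPKM + 1, PGAM5 KD minus control, with its 95% confidence interval, for the 9 tested genes described here and 10 other tested genes of the family, with filled points for an adjusted p under 0.05. Mcl1, Bid and Bcl2l11 lie left of 0, the 10 other genes are at or right of 0, and Bnip3 is farthest right at 1.48.

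The rest of the family was listed by name as 17 further genes, of which 10 were tested, and 5 rose and 0 fell in limma's test, beside 16.8% higher and 14.9% lower over all genes tested. All 10 had a positive log2 fold change, as had 5533 of the 10540 genes tested, but those of Becn1, Bcl2l2 and Bmf, named after their values were seen, were 0.0032, 0.0035 and 0.0070 with standard errors of 0.047, 0.086 and 0.084. The median of the 10 was 0.22, beside 0.013 over all genes tested, a value that scaling to TPM moved to -0.060. Bcl2l1 (BCL-XL) rose from 24.4 ± 2.03 to 32.7 ± 0.402 FPKM (SD, n = 3), by 0.41 on the log2 scale (standard error 0.06, limma adjusted p = 0.00270), and kept its call without each library in turn. Bnip3 and Bnip3l, atypical BH3 genes whose products are mitophagy receptors, rose by 1.48 and 0.69, from 18.2 ± 1.39 to 52.5 ± 1.65 FPKM and from 11.4 ± 0.555 to 18.9 ± 0.140 FPKM (SD, n = 3), and Bnip3 alone of these 10 exceeded a log2 fold change of 1. Bbc3, which encodes the BH3-only protein PUMA, rose by 0.54 (4.45 ± 1.05 to 6.82 ± 0.579 FPKM, adjusted p = 0.0268 from limma), a call that was lost without control replicate 2 or PGAM5 KD replicate 1 or 2 (adjusted p from 0.0692 to 0.0800) and with no filter on low values (0.0787). Bax is the other gene that rose. Bcl2l10, Bcl2a1c, Bok, Bik, Hrk, Bcl2l14 and Bcl2l15 were below the filter.

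Downstream of the pore, 20 genes of caspase activation were listed, of which 19 were tested, 3 rose and 3 fell, beside the 31.7% called over all genes tested, so the share called was at the background. The median of the 19 was 0.011 on the log2 scale. Casp8, the initiator caspase that cuts BID, rose from 11.0 ± 0.944 to 16.96 ± 1.25 FPKM (SD, n = 3; log2 fold change 0.59, adjusted p = 0.00163 from limma) and kept its call without each library in turn. The rise of Endog, a mitochondrial nuclease, was 0.59 (adjusted p = 0.0157 from limma), lost without control replicate 1 or PGAM5 KD replicate 3 (adjusted p = 0.0504 and 0.0559) and with no filter (0.0507), and Endog shares 379 of its 1063 exon bases with Spout1 on the opposite strand. Fadd, the adaptor that recruits caspase-8, Cflar, which encodes the caspase-8 inhibitor FLIP, and Xiap, an inhibitor of executioner caspases, fell by 0.33, 0.16 and 0.13 on the log2 scale (adjusted p = 0.0210, 0.0337 and 0.0409 from limma). Fadd was called in 2 of the 6 fits that left out a library, those without control replicate 2 or PGAM5 KD replicate 3, Cflar in 1, that without PGAM5 KD replicate 1, and Xiap in 0. In the other fits adjusted p was 0.0550 to 0.0684 for Fadd, 0.0672 to 0.0980 for Cflar and 0.0624 to 0.113 for Xiap. Fadd also lost its call with no filter on low values (limma adjusted p = 0.0657) and Xiap with no mean-variance trend (0.0594). TPM scaling gave larger falls, -0.25 for Cflar and -0.21 for Xiap.

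Of 25 listed regulators of the family, 22 were tested, 3 rose and 3 fell, beside the 31.7% called over all genes tested, a share near the background. The median of the 22 was 0.036 on the log2 scale. Ddit3, which encodes the stress factor CHOP, fell from 5.41 ± 0.849 to 2.73 ± 0.136 FPKM (SD, n = 3; log2 fold change -0.77, adjusted p = 0.00220 from limma). Ddit3 shares 68 of its 1713 exon bases with Mars on the opposite strand, which had a far higher mean of 56.9 FPKM. As the strand setting of the counting is not given, the level of Ddit3 is uncertain. Huwe1, a ubiquitin ligase for MCL-1, fell from 26.7 ± 0.932 to 18.6 ± 0.723 FPKM (-0.50, adjusted p = 0.000379 from limma), and Usp9x, a deubiquitinase that stabilizes MCL-1, fell from 15.9 ± 0.381 to 13.3 ± 0.416 FPKM (-0.25, adjusted p = 0.00611 from limma). March5, a ubiquitin ligase of the outer membrane, rose by 0.39 and Dynll1, a dynein light chain that binds BIM, by 0.21 (adjusted p = 0.00079 and 0.0118 from limma). At TPM scaling the rise of Dynll1 was 0.14 (limma adjusted p = 0.0453). These 5 genes passed the threshold without each library in turn. Rela, the NF-κB subunit p65, rose by 0.21 (adjusted p = 0.0419 from limma) and was called only without PGAM5 KD replicate 1 among those 6 fits, with adjusted p from 0.0886 to 0.105 in the other 5. It also lost its call with no filter on low values (0.0914), under quantile normalization (0.0763), at TPM scaling (0.123, with a rise of 0.14) and with no mean-variance trend (0.0659). Scaled to TPM, 2 regulators rose and 7 fell, beside 1088 higher and 2282 lower over all 10540 genes.

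**Figure D5:**
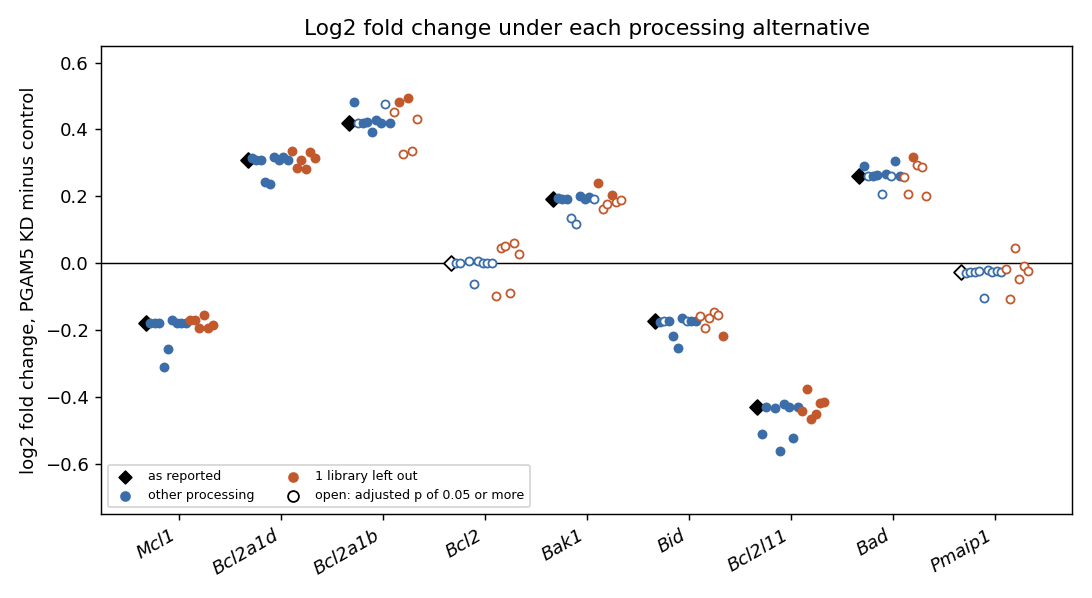
Log2 fold change of the 9 tested genes as reported (diamonds), under other processing (blue) and with 1 library left out (orange), with open points where the adjusted p was 0.05 or more. Mcl1, Bcl2a1d and Bcl2l11 stay filled and on 1 side of 0, whereas Bcl2a1b, Bak1, Bid and Bad keep their side of 0 and have open points, and the points of Bcl2 and Pmaip1 lie on both sides of 0.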

How the data were processed

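RNA-seq of 6 libraries, 3 per group, was deposited by the authors as FPKM per Ensembl gene, 1 table per library. Per the labels, HISAT2 2.0.5, featureCounts 1.5.0-p3 and mm10 were used. The annotation, the strand setting and the counting of multi-mapped fragments are not given in the sources used here. GENCODE M21 (GRCm38) held 54495 of the 54532 gene identifiers and gave symbols, coordinates and exon lengths. FPKM times exon length fell on whole fragments (within 0.01, below 1000 fragments) for 96.8% to 97.1% of values, which gave each library's depth. Floors cover counting error only, and 95% confidence intervals of log2 fold changes are limma's, from the spread between libraries. Replicates differed by more than sampling noise (chi-square per degree of freedom 5.06 to 8.92), so none was a copy.

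The filter kept 10540 genes whose FPKM averaged at least 1, and log2(FPKM + 1) was compared with limma 3.58.1 in R 4.3.3 (mean-variance trend, two-sided, Benjamini-Hochberg over all genes kept). A gene was called below an adjusted p of 0.05. Differential expression also required an absolute log2 fold change over 1, as in the study's methods. Changes of low genes are understated by the added 1. Summed FPKM was 304393 to 304889 in control and 317936 to 324298 in PGAM5 KD libraries, a gap that TPM removes. On simulated data with 2.5-fold changes, the fit recovered 189 of 190 changed genes and made 10 false calls. That check does not cover changes as small as those of the 10 genes. Exact two-sided permutation tests compared single values. MAFFT 7.526 aligned the coding sequences, Python 3.11.15 and pandas 2.3.3 handled tables, and matplotlib 3.10.9 drew the figures.

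The 10 genes, the 3 lists of related genes and the tests were chosen with earlier results of these data known. Named are the 10 genes, Pgam5, Bcl2a1c, markers, the 6 called genes with the largest change in each list (fewer where fewer were called) and the family genes below the filter. Some of these genes are not reported here. Genes that overlap these were named after values were seen. Ddit3 has a pair of identifiers, of which the longer gene was used. Alternatives were a pseudocount of 0.1, no filter, a higher filter (mean of 5 FPKM), quantile normalization, TPM, median centring, no trend, voom on recovered fragments, a replicate block, and each library left out in turn.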

Additional observations from a re-analysis of the deposited data

How the results depend on the processing

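Of 3346 genes called over all genes tested, 1771 were higher and 1575 lower, a split that scaling to TPM moved to 1088 and 2282. The number of differentially expressed genes was 139, and 261 with a pseudocount of 0.1, 76 at a mean FPKM of at least 5, 233 scaled to TPM and 283 with voom. Of the 10 BCL-2 family genes 7 were called, 4 of them higher, but 4 and 2 with no filter on low values, and 5 and 2 scaled to TPM. Over all genes, 2590 of 20816 were called with no filter, 1323 of them higher, and 3370 of 10540 scaled to TPM. With 1 library left out, 3 to 5 were called, 1 to 3 of them higher, beside 2340 to 2858 of 10540 over all genes. Bcl2a1b lost its call with no filter (log2 fold change 0.42, adjusted p = 0.0782 from limma) and with voom (0.48, adjusted p = 0.111). Bid lost it with no filter (-0.17, adjusted p = 0.0667) and with no mean-variance trend (-0.17, adjusted p = 0.0624). Bak1 lost it under quantile normalization (0.14, adjusted p = 0.0707), TPM (0.12) and the replicate block (0.19, adjusted p = 0.0504). Bad lost it with no filter (0.26, adjusted p = 0.103), TPM (0.21) and no trend (0.26, adjusted p = 0.0549). Without 1 library, log2 fold changes were 0.33 to 0.49 for Bcl2a1b, -0.22 to -0.15 for Bid, 0.16 to 0.24 for Bak1 and 0.20 to 0.32 for Bad. Over all alternatives those of Mcl1, Bcl2a1d and Bcl2l11 were -0.31 to -0.15, 0.24 to 0.33 and -0.56 to -0.38, and all passed, Bcl2l11 not being tested at a mean FPKM of at least 5. The sign of Bcl2 and Pmaip1 varied without a call. The log2 difference of the summed Bcl2a1 copies was 0.32 to 0.36 without 1 library. Of the related genes, with 10, 19 and 22 tested in the 3 lists, 17 were called, and 11 to 14 without 1 library. Over all 10540 genes, 3346 were called, and 2340 to 2858 without 1 library. In the rest of the family 3 to 5 of the 10 tested rose without 1 library, beside 1211 to 1497 over all genes. Of caspase activation genes 3 fell, 5 scaled to TPM, 1 with the replicate block and 0 to 1 without 1 library. Of the regulators 3 fell, 6 under quantile normalization and 7 scaled to TPM. Over all genes, 1575 fell, 1721 under quantile normalization, 2282 scaled to TPM, 1212 with the replicate block and 1129 to 1361 without 1 library. Same-numbered libraries did not deviate together (correlations -0.020, 0.016 and -0.052). Whether libraries of the same number were handled together is not given in the sources used here, and the correlations cannot settle it. The replicate block gave 2652 calls over all genes and 6 of the 10, and ended the calls of Bax, Rela, Cflar and Xiap (adjusted p = 0.0923, 0.0641, 0.0718 and 0.0905 from limma). The cause of these differences was not tested. Bcl2a1a rested on at most 24 fragments per library, and the unknown handling of shared fragments limits all Bcl2a1 copies.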

Other observations

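Of the 7 further genes of the family below the filter, 2 were higher in every PGAM5 KD library than in any control library. Both were chosen after their values were seen and are given as values only. The share was 24.2% among the genes tested, which are all above the filter, and none was computed for genes this low. Bcl2l15, a little-studied relative on chromosome 3, had 0.162, 0.0365 and 0.264 FPKM in control and 0.855, 0.690 and 1.54 FPKM in PGAM5 KD libraries, a ratio of means of 6.66 on 2 to 102 fragments per library (exact two-sided permutation p = 0.1; adjusted p = 0.0375 from limma with no filter). Bik, which encodes a BH3-only protein of the endoplasmic reticulum, had 0, 0 and 0 fragments in control and 7, 7 and 6 fragments in PGAM5 KD libraries. Set against a floor of 3 fragments over the control group, the 20 counted in PGAM5 KD libraries give a ratio of 5.98 per fragment sequenced. This ratio takes the 20 fragments as exact, so it is not a lower bound that covers their counting error.

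The called regulators Huwe1 and Usp9x and the caspase inhibitor Xiap, all 3 lower in PGAM5 KD iBMDMs, lie on chromosome X. The median log2 fold change of the 330 tested genes of that chromosome was 0.0086, and Aifm1, a mitochondrial flavoprotein gene on X from the list of caspase activation that was chosen after its values were seen, had 0.011 (adjusted p = 0.846 from limma).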
